A study of Mus musculus with 18 samples.

Results

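The carbonic anhydrase family was followed in RNA-Seq libraries of mouse small intestinal crypts, as 8 genes taken by name (Car1, Car2, Car3, Car4, Car8, Car9, Car12 and Car13) from the 55335 genes of the count table. Car1 was chosen by its counts in KO libraries, so those counts are a description and carry no test. The other 7 were named with earlier KO against WT results of these data known, and their values are given as measurements that support nothing beyond themselves. The remaining 10 genes of the family in the table (Car5a, Car5b, Car6, Car7, Car10, Car11, Car14, Car15, Ptprg and Ptprz1) were read beside them.

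The crypts came from mice of 8 to 12 weeks. WT animals carried a LoxP-flanked Prmt1 allele on both chromosomes (PRMT1 fl/fl) with no Cre, and KO animals carried the same alleles plus a CreERT2 transgene under the villin promoter, which is active in the intestinal epithelium and not in other tissues of the gut wall. Both genotypes received 2 mg of tamoxifen per injection, so at each day the drug was common to KO and WT. Groups of different days differed in drug exposure as well as in time. Crypts were collected at day 2, after 2 of the 5 planned injections, and at day 7 and day 14 after the first injection, with 3 libraries per genotype and day and 18 in all. The crypt preparation is not a sort and can hold other cells, and in bulk RNA fewer cells of a type and less RNA per cell cannot be told apart.

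Total counts per library ran from 12844642 to 31493484. Levels are CPM, each library's counts scaled to its depth after TMM normalisation, and CPM per kilobase of exon (CPM per kb) wherever genes are compared with each other. Prmt1, the targeted gene, averaged 26.6 CPM in WT and 14.4 CPM in KO libraries at day 2, 23.8 and 15.8 CPM at day 7, and 25.3 and 15.4 CPM at day 14, and was still read in every KO group. Epcam, an epithelial surface marker, had 923 ± 93.0 CPM (SD, n = 3) in WT and 927 ± 148 CPM in KO crypts at day 7. Genes were called by the quasi-likelihood test of edgeR where the Benjamini-Hochberg adjusted p over 21349 tested genes was under 0.05, and 6 of the 8 members (Car2, Car4, Car8, Car9, Car12 and Car13) were tested. Car1 passed the filter on low counts but is given without a test, and Car3 did not pass it.

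Carbonic anhydrases are zinc enzymes that convert carbon dioxide and water into bicarbonate and a proton, and back. The gut uses them to supply ions for acid, fluid and salt transport across the epithelium. Car1, Car2, Car3 and Car13 encode cytosolic enzymes, Car4 an enzyme anchored to the outer face of the cell membrane, Car9 and Car12 transmembrane enzymes with an outward catalytic domain, and Car8 a relative that has lost catalysis. In the large intestine Car1 is an abundant epithelial gene, and it is also a major protein of red blood cells.

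The zinc ion is held by 3 histidines, and the coding sequence around them is shown for the 4 neighbours on chromosome 3, because these lines show how alike the genes are. The letters come from GENCODE M21 transcripts (GRCm38, the build of the count table), run 5′ to 3′ along the coding strand, and carry in capitals the codons at the 3 zinc-binding positions. These positions were found by aligning each translated reading frame to that of Car2.
Car13: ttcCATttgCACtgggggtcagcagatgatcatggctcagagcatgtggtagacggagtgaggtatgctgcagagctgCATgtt
Car1: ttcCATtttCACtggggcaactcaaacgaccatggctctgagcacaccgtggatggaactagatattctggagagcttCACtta
Car3: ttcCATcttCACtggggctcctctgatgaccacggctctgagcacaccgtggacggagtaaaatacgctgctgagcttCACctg
Car2: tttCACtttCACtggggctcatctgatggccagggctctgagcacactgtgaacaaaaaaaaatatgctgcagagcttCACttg
All 3 capital codons encode histidine in these 4 genes. Car13, Car1, Car3 and Car2 lie in this order on mouse chromosome 3, at chr3:14641727-14663002, chr3:14766216-14808368, chr3:14863512-14872523 and chr3:14886273-14900770, with Car1 on the minus strand and the other 3 on the plus strand. Their proteins were 56.6% to 64.0% identical over the 6 pairs, against 32.4% to 44.0% over the other 22 pairs of members.

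Reads of the study were 100 bases long and paired, so the sequence shared between members bears on whether their counts are separate. The longest exact run shared by any 2 members' transcripts was 30 bases, between Car2 and Car13. Of the 1081 windows of 100 bases in the Car1 transcript, 32 also occurred in another gene, the unprocessed pseudogene Gm5843 that lies between Car13 and Car1, and that pseudogene had a sum of 1 count over the 18 libraries. For Car9, 48 of 1924 windows occurred in Gm12454, an antisense gene with 200 to 614 counts that shares 214 exonic bases with Car9. Counting took no account of strand, so reads from that stretch cannot be assigned to Car9 or Gm12454. The other 6 members shared no such window with any gene.

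Small intestinal crypts expressed the family very unevenly (plot of levels per length). Over the 18 libraries the mean level was 43.7 CPM per kb for Car4, 31.7 for Car9, 19.7 for Car13, 7.50 for Car8, 3.94 for Car2 and 3.02 for Car12. Car1 averaged 0.385 CPM per kb and Car3 0.0102 CPM per kb. Neighbours in this order were not all apart, since the range of Car4 over libraries, 23.2 to 79.4 CPM per kb, took in all of the range of Car9, 24.1 to 43.4, and the range of Car2, 1.27 to 7.81, took in that of Car12, 2.43 to 3.95. In WT crypts at day 7 the share of the members' summed CPM per kb was 43.1% ± 2.41 for Car4, 31.1% ± 2.29 for Car9 and 13.9% ± 3.00 for Car13 (SD, n = 3).

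**Figure D1:**
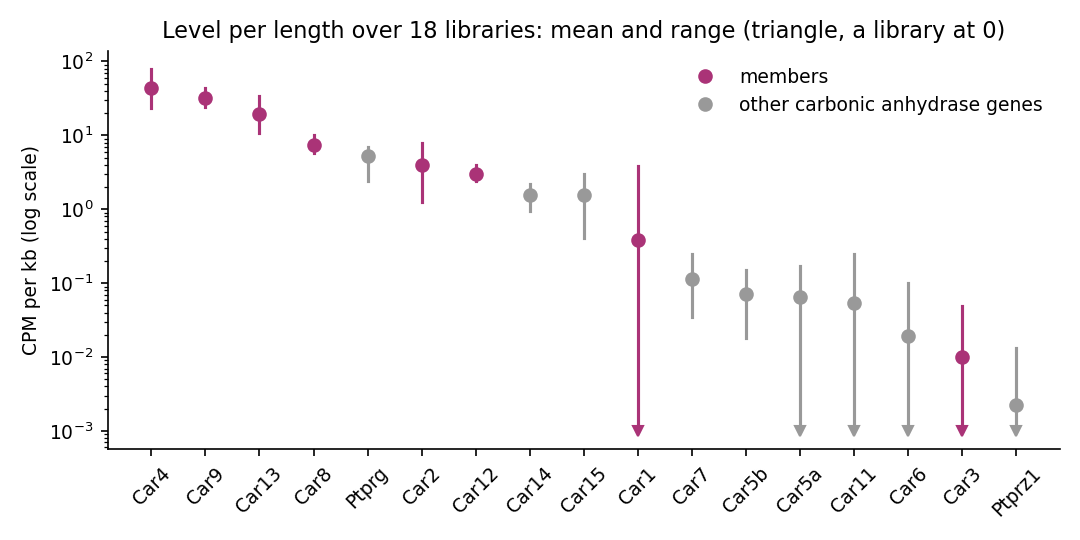
Mean level (point) and range (line) over 18 libraries for 17 carbonic anhydrase genes, in CPM per kb on a log axis, with members in purple and other genes of the family in grey; a triangle marks a gene with at least 1 library at 0, and Car10, at 0 counts in all 18 libraries, is not drawn. Car4, Car9 and Car13 lead at means of 43.7, 31.7 and 19.7 CPM per kb, and Car1 runs from 0 to 3.801 CPM per kb.

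Car1 reads were present in all 6 KO libraries of days 7 and 14 and nearly absent elsewhere. Among the 12 libraries outside those groups, 10 had 0 counts of Car1 and 2 had 1 count, namely KO day 2 replicate 3 and WT day 7 replicate 3. In KO crypts at day 7 the 3 libraries had 5, 7 and 20 counts, or 0.222, 0.246 and 0.873 CPM. In KO crypts at day 14 they had 90, 6 and 31 counts, or 4.74, 0.378 and 2.09 CPM. These 6 libraries all lay above the other 12, and within each group their range was wider than the group mean. A library at 0 counts allows a level of up to 0.108 to 0.227 CPM at 3 counts, depending on its depth, and the lowest KO library, at 0.222 CPM, was under the highest of these limits.

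The mean level of Car1 was 0.447 ± 0.369 CPM (SD, n = 3) in KO crypts at day 7 and 2.40 ± 2.20 CPM at day 14, and the 2 KO groups overlapped. With the libraries of a group pooled, Car1 had 32 counts in KO and 1 count in WT crypts at day 7, a ratio of 28.7 with an exact 95% interval of 4.80 to 1169 for counting error only. Without KO day 7 replicate 3 that ratio was 15.6. At day 14 the pooled counts were 127 in KO and 0 in WT. Against a floor of 3 counts over the WT group, the pooled KO level was 51.3-fold higher. Like the interval of day 7, this value covers counting error only. It leaves out the spread between mice, whose KO counts were 90, 6 and 31. It is therefore not a lower bound for a single mouse. Without KO day 14 replicate 1 the pooled value was 24.2-fold. At day 2 there was 1 count in the KO group and 0 in the WT group, and no fold is given. For scale, the highest library of Car1 reached 3.801 CPM per kb, a level inside the range of Car12 and of Car2 in the same crypts.

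**Figure D2:**
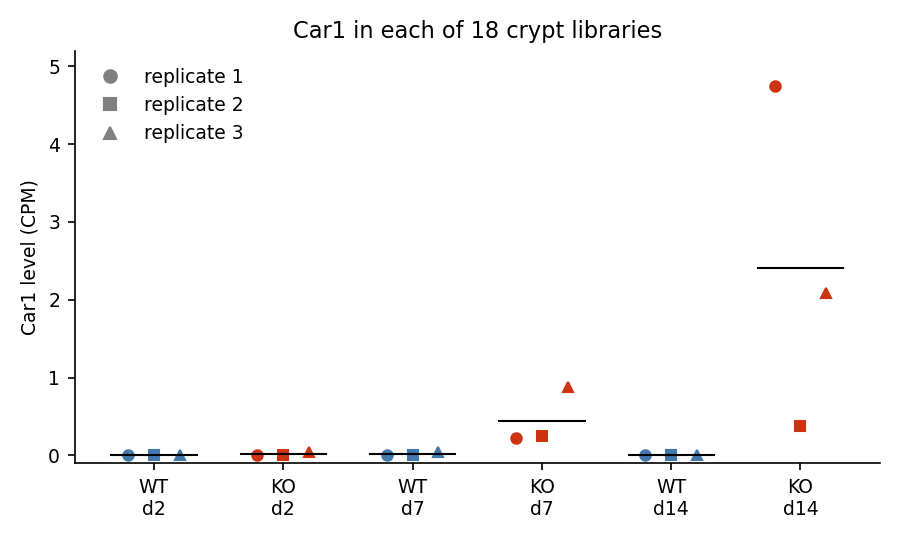
Car1 level in CPM (vertical axis) in each of 18 libraries by genotype and day (horizontal axis, WT blue and KO red), with the symbol giving the replicate number and the line the group mean. The 6 KO libraries of days 7 and 14 sit between 0.222 and 4.74 CPM and the other 12 at or below 0.0438 CPM.

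Values of other cell types and tissues are set beside Car1. Red blood cell markers (among them 4 globins, Alas2 and Slc4a1; 7 of the 8 listed genes were in the table, 5 were tested and none was called on any day, with adjusted p of 0.228 or more at days 7 and 14) summed to 16.6, 10.4 and 25.98 CPM in the 3 KO libraries of day 7. They summed to 10.8, 16.97 and 114 CPM in KO replicates 1, 2 and 3 of day 14, which held 90, 6 and 31 counts of Car1. The highest red blood cell sum of all 18 libraries was thus in the library with the next to highest Car1 level, and the library with the highest Car1 level had one of the lowest sums. In the 12 libraries nearly without Car1 the sum ran from 13.2 to 43.1 CPM. Enteroendocrine markers (Chga, Chgb, Neurod1, Tph1 and Cck) summed to 561 to 804 CPM in the 6 KO libraries of days 7 and 14. In the other 12 libraries they summed to 207 to 375 CPM. All 5 were called higher in KO crypts on both days. The share called higher among the 21349 genes with a test was 7.11% (day 7) and 3.23% (day 14). The study had already reported these 5 genes as raised in the same KO libraries of day 14. The part of enteroendocrine cells in the Car1 counts was not tested.

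Of 18 large intestine markers other than Car1, 9 had enough reads to be tested. At day 7, 2 were called higher and 2 lower in KO crypts, against 7.11% of all tested genes called higher and 10.2% called lower. B3gnt7, a glycosyltransferase, rose from 21.4 to 49.1 CPM at day 7 (log2 fold change 1.197, SE 0.18, adjusted p = 0.000119). It also rose at day 14, from 20.6 to 36.6 CPM (adjusted p = 0.00596). Slc26a3, the chloride and bicarbonate exchanger of surface enterocytes, rose at day 7 (0.77, SE 0.17, adjusted p = 0.00418). At day 14 Slc26a3 had a log2 fold change of 0.58 and an adjusted p of 0.0434, which became 0.0683 to 0.164 without any 1 of the 3 KO libraries or of WT replicates 1 and 2. With the replicate number as a block it was 0.0636.

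B4galnt2, another glycosyltransferase of the list, fell at day 7 (-0.71, SE 0.15, adjusted p = 0.00314). Hoxa13, Hoxb13 and Hoxd13, the homeobox genes of the hindgut, had means of at most 0.0132 CPM in each KO and WT group of days 7 and 14. The list had no common direction: the median log2 fold change of the 9 tested genes was 0.11 at day 7 and 0.08 at day 14, against 0.02 and 0.00 over all tested genes.

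Car3, which encodes the cytosolic enzyme of muscle and fat, was at the floor. It had 0 counts in 12 of 18 libraries, a highest count of 3 and a sum of 11 counts, spread over both genotypes and all days. No fold is given because every group was at or under 3 counts. Of 7 adipocyte markers 2 were tested, and their sum at day 7 was 13.7 to 21.1 CPM in WT and 28.4 to 46.6 CPM in KO crypts. Most of it was Cidec, a lipid droplet protein, which was called higher at day 7 (log2 fold change 1.31, adjusted p = 0.036, or 0.069 to 0.126 without KO replicate 1 or 2 or any 1 of the WT libraries), while Adipoq and Lep, which define adipocytes, had means of at most 0.0292 CPM in both groups.

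Of 6 skeletal muscle markers, Acta1, an actin of muscle named after its values were seen, was the 1 tested. At day 2 it averaged 1.07 CPM in WT and 5.19 CPM in KO crypts (log2 fold change 2.27, adjusted p = 0.0401, or 0.0824 to 0.332 without any 1 of the 6 libraries of that day). The other 5 had at most 7 counts in any library, with Myh1, Myh4 and Mb at 0 in all 18. The part of adipocytes and muscle in the few Car3 counts was not tested.

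Of the 6 members tested, none was called between KO and WT at any day by edgeR, and none by DESeq2. Over all tested genes the share called was 0.0328% at day 2, 17.3% at day 7 and 7.92% at day 14. At an unadjusted p under 0.05 there were 0 members at day 2, 1 at day 7 (Car2) and 0 at day 14, against 3.33%, 29.9% and 21.6% of all tested genes. All 6 estimates were above 0 at day 7 and at day 14 in the fit of all libraries, with medians of 0.38 and 0.19 on the log2 scale, against 0.02 and 0.00 over all tested genes, and 4 of 6 were above 0 at day 2. Signs were not stable for 3 of these estimates. Car8 at day 7 turned to between -0.0044 and -0.017 under 3 other settings and to -0.054 and -0.053 without KO replicate 3 or WT replicate 1. At day 14 Car2 turned to -0.29 without KO replicate 2, and Car4 to -0.13, -0.023 and -0.054 without KO replicate 1, WT replicate 1 or WT replicate 3. These values are described only, and 11 of the 12 intervals of days 7 and 14 took in 0 (plot of fold changes with intervals).

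**Figure D3:**
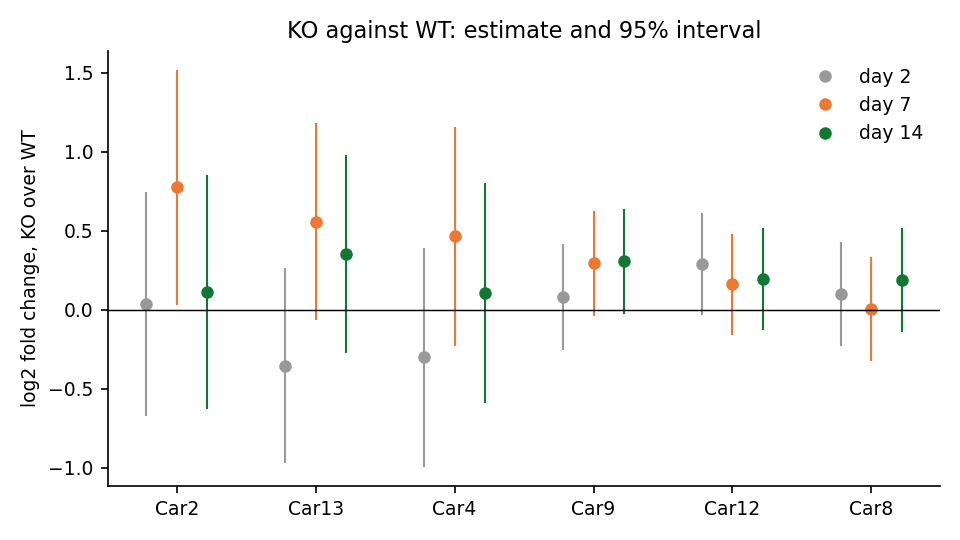
Log2 fold change of KO over WT (vertical axis; point, edgeR estimate; line, 95% interval) for the 6 tested members at day 2 (grey), day 7 (orange) and day 14 (green). All 12 estimates of days 7 and 14 lie above 0, of which Car8 at day 7 and Car2 and Car4 at day 14 turn below 0 under other settings or without single libraries, and only the interval of Car2 at day 7, 0.03 to 1.51, does not reach it.

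Car2, the fast cytosolic enzyme of many epithelia, had the largest KO against WT estimate among the 6 tested members. Its CPM in WT crypts was 7.30, 3.07 and 3.59 at day 7, against 8.67, 9.13 and 6.51 in KO crypts. The 2 groups overlapped, because WT replicate 1 lay above KO replicate 3. The fold was 1.71 (95% interval 1.02 to 2.86, adjusted p = 0.147). Without WT day 7 replicate 1 Car2 was called at day 7 (log2 fold change 1.28, adjusted p = 0.027), so that library decided it. At day 14 the CPM of Car2 was 7.40, 8.02 and 9.50 in WT and 5.53, 13.6 and 8.03 in KO crypts, where the KO libraries lay on both sides of WT (fold 1.08, interval 0.651 to 1.80, adjusted p = 0.899).

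Car2 was also compared between days within WT crypts, where no KO library enters. Day 2 crypts were taken before the planned injections were complete, so time and drug exposure cannot be told apart between days. At day 2 its CPM in WT was 9.18, 12.1 and 18.9, and all 3 values lay above the 3 WT values of day 7. The log2 fold change of WT day 7 against WT day 2 was -1.50 (SE 0.35, adjusted p = 0.0549), past 0 by its interval (-2.24 to -0.76) but short of the threshold, with 0.553% of all genes called. DESeq2 gave an adjusted p of 0.00156 in that comparison, in which it called 1549 genes where edgeR called 118. Without WT day 2 replicate 2 the edgeR value was 0.0482.

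Car13, the cytosolic enzyme found widely in the gut, was compared between WT days in the same way. Its CPM in WT crypts was 77.3, 48.0 and 73.4 at day 2, 26.6, 43.6 and 28.1 at day 7, and 24.4, 40.1 and 31.5 at day 14. No WT library of day 7 or 14 reached the lowest of day 2. Against day 2 the log2 fold change was -1.02 for day 7 (SE 0.29, adjusted p = 0.0786). For day 14 it was -1.05 (SE 0.29, adjusted p = 0.0682), and 1.61% of all genes were called between WT days 14 and 2. DESeq2 called both, with adjusted p = 0.0144 and 0.00969. Without WT day 2 replicate 2, edgeR called both as well (adjusted p = 0.0497 and 0.0412).

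In KO crypts Car13 had 50.6, 39.7 and 65.2 CPM at day 2, 64.1, 45.1 and 34.9 CPM at day 7, and 29.6, 56.1 and 37.4 CPM at day 14. The KO and WT values of Car13 overlapped on each day. The KO effect on Car13 was larger at day 7 than at day 2 by 0.91 on the log2 scale (interval 0.04 to 1.78), with an unadjusted p of 0.0413, under 0.05 as for 18.1% of all tested genes, and an adjusted p of 0.254 in edgeR. That test of the difference was passed by 4.37% of all genes. No member passed it. Between day 14 and day 7 no gene at all was called (0% of those tested by edgeR and by DESeq2), with 953 genes and no member at an unadjusted p under 0.05.

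Enterocyte markers (Alpi, Sis, Apoa1, Apoa4, Fabp1 and Fabp2) differed in their sum between the same libraries. Their sum ran from 9039 to 20413 CPM in WT at day 2, from 5782 to 8824 CPM in WT at day 7 and from 3032 to 8678 CPM in WT at day 14, so that day 2 lay above both later days. In KO crypts it ran from 10686 to 17735 CPM at day 7, above all WT libraries of that day, and from 8602 to 17241 CPM at day 14. Of the 6 genes, edgeR called 2 higher at day 7 (Fabp1 and Fabp2) and 1 at day 14 (Sis). The shares over all tested genes were 7.11% and 3.23%. Each of these calls was lost without some single libraries, with an adjusted p of up to 0.0734 for Fabp1, 0.157 for Fabp2 and 0.0907 for Sis. The part of enterocyte content in the values of Car2, Car13 and Car4 was not tested.

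**Figure D4:**
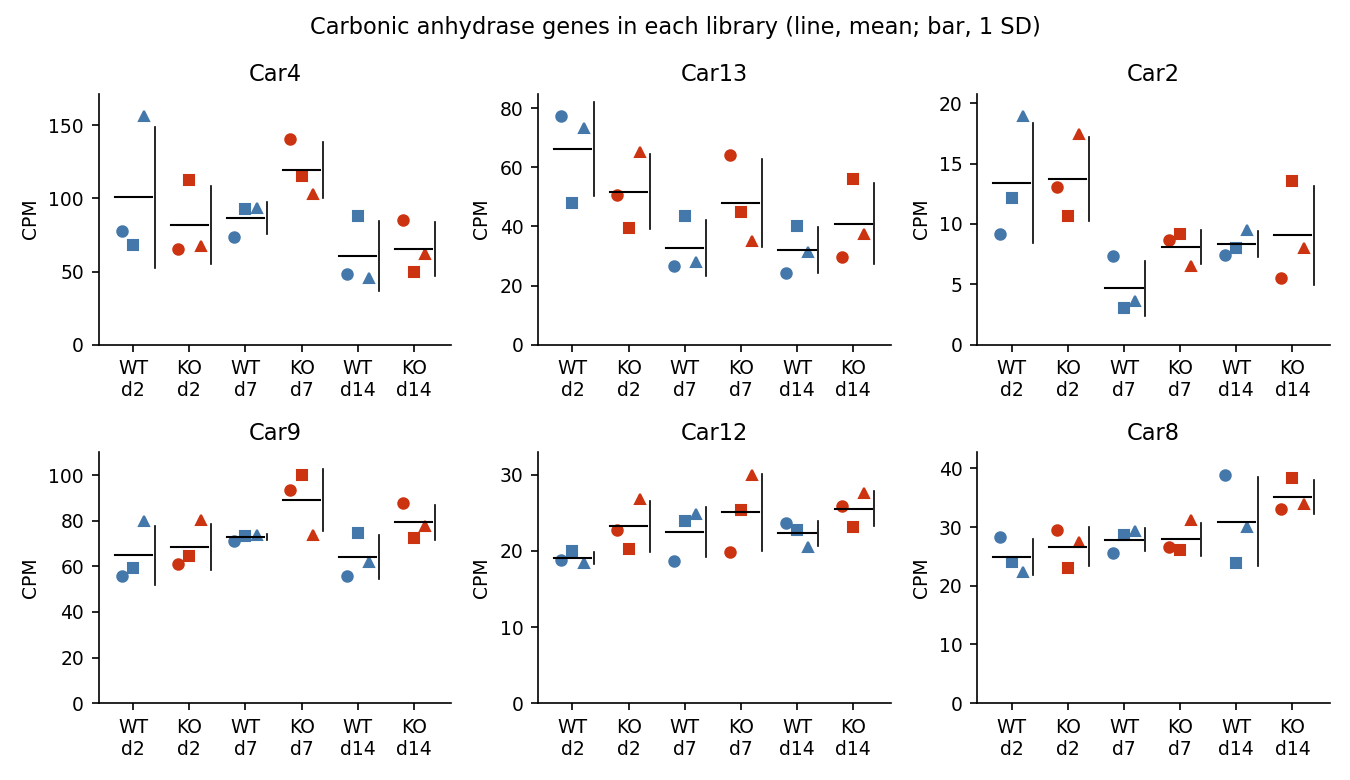
Level in CPM (vertical axes, starting at 0) of the 6 tested members in each library by genotype and day (WT blue, KO red; symbols give replicate 1 as circle, 2 as square and 3 as triangle; line, mean; bar, 1 SD; n = 3). WT day 2 stands above WT day 7 for Car2 and Car13, and KO stands above WT at day 7 for Car4 and Car9.

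Car4, the enzyme on the outer membrane face, had the highest mean level per length of the members over the 18 libraries. In KO crypts at day 14 its mean, 33.4 CPM per kb, was next to the 34.4 CPM per kb of Car9. Its CPM in WT crypts was 73.9, 92.6 and 93.3 at day 7, and in KO crypts 141, 115 and 103, so that the lowest KO library lay above the highest WT library. Car4 and Car9 were the 2 members of which KO and WT libraries did not overlap at day 7, which held for 33.6% of all tested genes. The fold of Car4 at day 7 was 1.38 (interval 0.858 to 2.22, adjusted p = 0.368). At day 2 the CPM of Car4 was 77.5, 68.4 and 156 in WT and 65.4, 112 and 67.4 in KO crypts, with 1 high library in each group. At day 14 the groups overlapped again, at 48.6, 88.3 and 45.6 CPM in WT and 85.5, 49.5 and 61.8 CPM in KO crypts (fold 1.08, interval 0.667 to 1.74). From WT day 2 to WT day 14 the log2 fold change of Car4 was -0.72 (SE 0.33, adjusted p = 0.228).

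Car9, a transmembrane enzyme and a known target of the hypoxia-inducible factor HIF, had 71.2, 73.3 and 73.7 CPM in WT and 93.5, 100.1 and 73.7 CPM in KO crypts at day 7. KO replicate 3 lay only just above the WT values. The fold was 1.23 (interval 0.978 to 1.54, adjusted p = 0.22). At day 14 Car9 had 55.9, 74.6 and 61.9 CPM in WT and 87.7, 72.5 and 77.7 CPM in KO crypts, with a fold of 1.24 (interval 0.985 to 1.55, adjusted p = 0.27) and an overlap through WT replicate 2. No tested member was free of overlap at day 14, against 26.5% of all tested genes. An increase of Car9 beyond 1.55-fold lay outside both intervals.

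Other HIF targets were taken as a list of 18 genes, all tested. At day 7, 7 were called higher and 1 lower in KO crypts, against 7.11% and 10.2% of all tested genes, and the median log2 fold change of the list was 0.64, against 0.02 over all tested genes. At day 14, 2 were higher and 1 lower, where 3.23% of all genes were called higher and 4.69% lower. Slc2a1, the basal glucose transporter, rose from 18.004 to 40.4 CPM at day 7 (log2 fold change 1.16, SE 0.19, adjusted p = 0.000271). At day 14 it rose by 0.76 on the log2 scale, with an adjusted p of 0.0151 that became 0.058 without WT replicate 3. Bnip3, a mitophagy receptor, rose from 3.04 to 7.68 CPM at day 7 (1.35, SE 0.28, adjusted p = 0.00267). Its change of 1.16 at day 14 had an adjusted p of 0.0212, or 0.0571 to 0.0912 without KO replicate 2 or WT replicate 2 or 3. Ak4, a mitochondrial adenylate kinase, rose at day 7 from a mean of 0.383 to 1.57 CPM (2.06, SE 0.42, adjusted p = 0.00231), and at day 14 it had 0.259 CPM in WT and 0.209 CPM in KO crypts (-0.31, adjusted p = 0.838).

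Egln3, an oxygen sensor of the HIF system, rose at day 7 (1.55, SE 0.42, adjusted p = 0.0204), a call lost without KO replicate 1 or any 1 of the 3 WT libraries (adjusted p = 0.0539 to 0.109). Pdk1, which restrains pyruvate oxidation and was named after its values were seen, fell at day 7 from 48.3 to 24.9 CPM (-0.95, SE 0.13, adjusted p = 4.98e-05), and from 51.2 to 28.0 CPM at day 14 (-0.87, adjusted p = 0.000288). The other 10 genes of the list were not called at day 7. The enterocyte sums were also higher in these KO libraries (10686 to 17735 CPM in KO and 5782 to 8824 CPM in WT at day 7), and their part in the values of the HIF list and Car9 was not tested. The estimate of Car9, 0.29 at day 7, lay below the list's median.

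**Figure D5:**
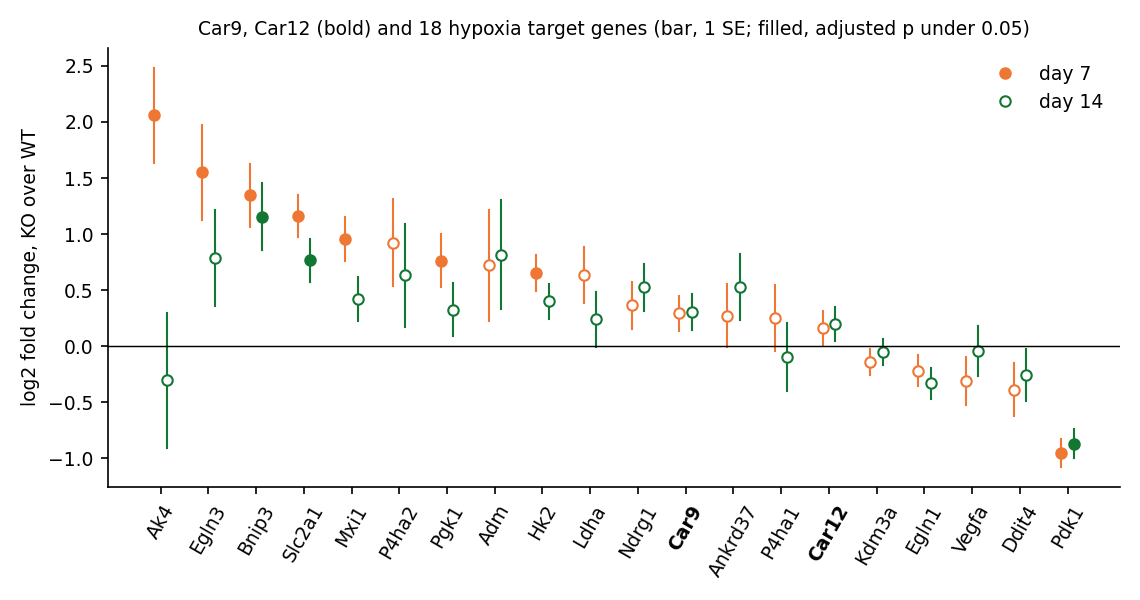
Log2 fold change of KO over WT (vertical axis; bar, 1 SE) at day 7 (orange) and day 14 (green) for 18 HIF target genes and for Car9 and Car12 (bold), ordered by day 7; filled points passed an adjusted p under 0.05. At day 7, 7 of the 18 are filled above 0 and 1 below, and Car9 and Car12 are open near 0.29 and 0.16.

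Car12, the other transmembrane enzyme, ran from 18.4 to 29.997 CPM over all 18 libraries. Its highest library was 1.63 times its lowest, the smallest such ratio of the 6 tested members, against 6.16 for Car2. It was the only tested member of which KO and WT libraries did not overlap at day 2, with 18.8, 19.97 and 18.4 CPM in WT and 22.7, 20.2 and 26.8 CPM in KO crypts, a lack of overlap found for 8.16% of all tested genes. The fold was 1.22 (interval 0.981 to 1.52, adjusted p = 0.999). At day 7 the log2 fold change was 0.16 (interval in folds 0.899 to 1.39) and at day 14 it was 0.19 (0.918 to 1.43). All WT libraries of day 14 (20.5 to 23.7 CPM) lay above those of day 2, and besides Car12 this lack of overlap between WT days 14 and 2 held for Car13 among the members and for 23.8% of all genes. Between WT days 7 and 2 it held for Car2 and Car13 and for 28.4% of all genes.

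Car8, the relative that has lost catalysis, is best known from Purkinje cells, where its protein binds the inositol trisphosphate receptor. In crypts it was read in every library, at 22.3 to 38.9 CPM. At day 7 it had 25.6, 28.6 and 29.3 CPM in WT and 26.6, 26.1 and 31.1 CPM in KO crypts, a fold of 1.00 with an interval of 0.803 to 1.25. At day 14 it had 38.9, 23.9 and 29.98 CPM in WT and 33.0, 38.4 and 34.0 CPM in KO crypts, and the fold was 1.14 (interval 0.912 to 1.43). The interval of day 7 bounds a KO difference of Car8 at 1.25-fold up or 0.803-fold down.

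The summed level of the 8 members was 102 ± 8.97 CPM per kb in WT and 135 ± 19.2 in KO crypts at day 7 (SD, n = 3). It was 87.1 ± 17.5 and 104 ± 7.58 CPM per kb at day 14, and 123 ± 34.9 and 110 ± 10.1 at day 2. Car1 made up 0.290% ± 0.276 of this sum in KO crypts at day 7 and 1.79% ± 1.54 at day 14. Most of the sum was Car4, Car9 and Car13 in every group.

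Some genes of the family outside the members were lower in KO crypts. Car15, a membrane-anchored enzyme, had 5.68, 3.77 and 4.82 CPM in WT and 0.934, 0.772 and 1.53 CPM in KO crypts at day 7 and fell, with a KO over WT fold of 0.224 (interval 0.143 to 0.353, adjusted p = 0.000103). At day 14 it had 5.74, 3.47 and 5.38 CPM in WT and 1.37, 1.20 and 1.69 CPM in KO crypts (fold 0.294, interval 0.186 to 0.465, adjusted p = 0.00144). No KO library reached a WT library of its day. Of the 1906 exonic bases of Car15, 1253 are shared with Gm20518 on the same strand, so its reads cannot be told apart from that gene's over this stretch. Gm20518 had 803 to 2025 counts, against 19 to 158 for Car15.

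Car14, a transmembrane enzyme, had 4.50, 4.73 and 5.65 CPM in WT and 2.40, 2.91 and 3.19 CPM in KO crypts at day 7 and fell (fold 0.572, interval 0.445 to 0.735, adjusted p = 0.00315). At day 14 its fold was 0.747 with an adjusted p of 0.167. Car14 shares 445 exonic bases with the antisense gene Aph1a, which had 356 to 1252 counts against 42 to 137 for Car14. Reads from that stretch cannot be assigned to Car14 or Aph1a, so the fall may not be that of Car14 alone. Ptprg, a receptor phosphatase with a carbonic anhydrase-like outer domain, had 73.2, 64.6 and 70.6 CPM in WT and 26.4, 27.9 and 42.9 CPM in KO crypts at day 7 and fell (fold 0.466, interval 0.355 to 0.611, adjusted p = 0.000479). At day 14 its fold was 0.744 with an adjusted p of 0.181. Of the 10 genes outside the members 5 were tested, of which 3 were called lower at day 7, 1 at day 14 and none at day 2 by edgeR, against 10.2% and 4.69% of all tested genes called lower at days 7 and 14 and 0.0328% called in either direction at day 2, where Car14 came nearest with an unadjusted p of 0.0551. The mitochondrial Car5b and the cytosolic Car7, at means of 0.448 and 0.418 CPM, had log2 fold changes of -1.06 and -0.98 at day 7 with adjusted p of 0.145 and 0.154. Car5a, Car6, Car11 and Ptprz1 had at most 7 counts in any library, and Car10 had none. Stem cell markers summed to 244 to 687 CPM in KO and 1126 to 1535 CPM in WT libraries of day 7 (3 of 4 genes called lower), and Paneth cell markers to 1219 to 3280 and 7193 to 12308 CPM (4 of 4 lower). At day 14 the stem cell sums were 1050 to 1282 CPM in KO and 1353 to 1566 CPM in WT libraries, and the Paneth cell sums 4606 to 6203 and 7664 to 17258 CPM, with 1 of 4 genes called lower in each list. These were Smoc2 (edgeR adjusted p = 0.0158) and Ang4 (0.0271). Both calls were lost without some single libraries, with an adjusted p of up to 0.105 for Smoc2 and 0.125 for Ang4. The part of stem and Paneth cells in the values of Car14, Car15 and Ptprg was not tested.

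The bicarbonate made or used by these enzymes crosses membranes on transporters, of which 13 of 15 listed were tested. At day 7 Slc26a3 was the 1 called higher, and Cftr and Slc4a5 were the 2 called lower. Of all tested genes 17.3% were called at day 7, so these 3 of 13 are not read as a result about the transporters. Cftr, the chloride and bicarbonate channel of crypts, fell from 291 to 162 CPM (-0.84, SE 0.16, adjusted p = 0.00101), with an adjusted p of 0.167 at day 14. Slc4a5, a sodium bicarbonate cotransporter, fell from 28.9 to 5.73 CPM at day 7 (-2.33, SE 0.27, adjusted p = 1.76e-05), and from 25.8 to 8.94 CPM at day 14 (-1.54, adjusted p = 0.00129). The other 10 tested transporters were not called at day 7. Of 13 tested sodium-proton exchangers, proton pumps and proton-coupled carriers, 1 was called, the lactate exporter Slc16a3, which rose from 12.8 to 30.01 CPM at day 7 (1.22, SE 0.29, adjusted p = 0.00791) and had an adjusted p of 0.0668 at day 14.

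The 6 tested members were correlated with each other over the 18 libraries. Among 15 pairs, the permutation p adjusted over the pairs was under 0.05 for none by Pearson's r and for 1 by Spearman's rho. That pair was Car2 and Car13, with r = 0.60 (permutation p = 0.00863, adjusted 0.0647) and rho = 0.69 (permutation p = 0.00197, adjusted 0.0295). Without the 2 libraries farthest from the median of Car2 its r was 0.70, and over deviations from the group means it was 0.31. For Car4 and Car8 the values did not pass the adjustment, with r = -0.65 (permutation p = 0.00361, adjusted 0.0541) and rho = -0.62 (permutation p = 0.00782, adjusted 0.0586), and r = -0.61 without the 2 libraries farthest from the median of Car4. It was -0.67 over deviations from the group means. The 18 libraries come from 3 days and both genotypes, so differences between those groups enter the pooled values.

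The genes most like each of 7 members, Car3 left out, were ranked by Pearson's r of log2 CPM over the 18 libraries, as a description with no test. For Car1 they were Pax4 (r = 0.92), Vps51 (0.91) and Vgf (0.91), with Spearman's rho of 0.63, 0.77 and 0.65, and the values of r rest on the 6 KO libraries in which Car1 had more than 1 count. Of these 7, Car13 had the highest values, Idh1, Ghitm and Tmem238l at r = 0.96 each. For Car9 they included Alppl2 (0.90) and Tmem79 (0.89), and for Car8 they were Sync (0.88), Hoxb6 (0.86) and Stxbp6 (0.83). Car2 was closest to Zc3hav1 (0.86), Ccng2 (0.84) and Apol9b (0.83), Car12 to Nle1 (0.88), Pomgnt1 (0.85) and Gemin5 (0.84), and Car4 to Nhsl1 (0.81), Mpi (0.80) and Ccdc47 (0.80). No gene stood among the 3 closest of more than 1 member.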

How the data were processed

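RNA of small intestinal crypts was ribodepleted (TruSeq total RNA) and sequenced as paired reads of 100 bases. The authors mapped reads to mm10 with STAR 2.7.3 and deposited counts per gene from featureCounts 1.6.4, unstranded, with reads over several genes counted for each; per the file headers GENCODE M23 was used, while the study's methods name a later release. HTSeq is also listed in the submitters' notes. Here the 18 libraries (6 groups of 3) were fitted together in edgeR 4.0.16 (R 4.3.3; TMM, filterByExpr, robust quasi-likelihood, 1 mean per group), leaving out 20 sex-linked genes the study lists, with Benjamini-Hochberg adjustment over 21349 genes. DESeq2 1.42.0 was an alternative. Prior count for correlations was 2. The interval of the pooled Car1 ratio and floors (3 counts) cover counting error only. The intervals of fold changes come from the edgeR standard errors. Like the p-values, they rest on a spread between mice that the model estimates over all 6 groups together. They do not measure the spread of the 3 mice of 1 group alone. Sequences came from GENCODE M21 through Biopython 1.88. The edgeR step was tested on simulated data.

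The members and gene lists were chosen with earlier results of these data known. Besides the members, up to 4 called genes per list with the largest change at day 7 or 14 were named, with the markers of a cell type set beside a member and the 3 protein-named genes most correlated with each member. No per-sample column was left unused. Some items that the rule would name are not reported here. Same-numbered KO and WT libraries deviated together in all 3 pairs of day 14 only (correlations 0.159 to 0.227), so the replicate number was taken as pairing them from the data at that day, and the fit with it as a block is given where it changes a day 14 call.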

Additional observations from a re-analysis of the deposited data

Results flagged for a closer look

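For 2 genes of the family outside the members, the KO effect differed between days by the test of the difference itself. Car15 changed by -1.73 more on the log2 scale at day 7 than at day 2 (SE 0.43, edgeR adjusted p = 0.0272), with KO effects of -2.16 at day 7 and -0.43 at day 2. The adjusted p ran from 0.0546 to 0.0831 when KO day 2 replicate 2, WT day 2 replicate 1 or 3, KO day 7 replicate 1 or 2, or WT day 7 replicate 1 or 3 was left out. Ptprg changed by -1.19 more at day 7 than at day 2 (SE 0.26, adjusted p = 0.014), with KO effects of -1.10 at day 7 and 0.08 at day 2. None of the 6 tested members passed this test by edgeR or DESeq2, and 1 (Car13) had an unadjusted p under 0.05 in edgeR, as did 18.1% of all tested genes.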

How the results depend on the processing

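With 3 libraries per group, leaving out each library moved the number of members called between 0 and 1 for KO against WT at day 7, 0 and 2 for WT day 7 against WT day 2 and 0 and 1 for WT day 14 against WT day 2. DESeq2's Wald test called 2 members (Car2 and Car13) for WT day 7 and 1 (Car13) for WT day 14 against day 2. For WT day 7 against day 2, 1 member was called with the 20 most abundant genes left out (Car2) and 1 with only the groups compared in the model (Car13). Under the other settings the number called was 0 in all 7 comparisons. The cause was not tested.

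Estimates near 0 changed sign. Car8 at day 7 was 0.00 and became -0.011 with no filter on low counts, -0.017 with the 20 genes left out and -0.0044 with only the groups compared. Car9 for WT day 14 against day 2 was -0.01 and became 0.020 and 0.0041 under the last 2 of these. Over libraries left out 1 at a time, log2 fold changes ran from -0.18 to 0.36 (Car2, day 2), -0.29 to 0.38 (Car2, day 14), -0.60 to 0.15 (Car4, day 2), -0.13 to 0.48 (Car4, day 14), -0.43 to 0.23 (Car4, WT day 7 against day 2), -0.054 to 0.058 (Car8, day 7), -0.048 to 0.25 (Car9, day 2) and -0.14 to 0.16 (Car9, WT day 14 against day 2). The day 7 minus day 2 difference ran from -0.20 to 0.0058 for Car8 and -0.26 to 0.027 for Car12. With TMM factors estimated again without each library in turn, the mean CPM of Car1 ran from 0.237 to 0.563 at day 7 and from 1.25 to 3.47 at day 14 in KO crypts.

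Replicate numbers are shared between groups. In their deviations from the group means, same-numbered KO and WT libraries correlated over 0.1 in all 3 pairs of day 14 (0.227, 0.18 and 0.159). Not all pairs did at day 2 (0.0478 to 0.381) or day 7 (-0.159 to 0.206). The study used matched littermates as controls, but the labels do not say which samples were littermates. These correlations cannot settle whether the numbers pair them on any day. With the replicate block added, 0 members were called in each of the 7 comparisons, and Slc26a3 at day 14 lost its call (adjusted p = 0.0636), as it did with only the groups compared (0.066). Acta1 at day 2 lost its call under both of these (0.113 and 0.0646), and Egln3 and Cidec at day 7 lost theirs with no filter (0.0576 and 0.0948). Over all genes the block gave 3498 calls at day 7 (3690 without it), 1572 at day 14 (1690) and, for WT day 7 against day 2, 19 (118). That WT comparison had 45.8% of its calls higher, 62.8% of 288 with the 20 genes left out and 10.5% of the 19 with the block, and gave 1012 calls with no filter on low counts, 1549 by DESeq2 and 576 with only its groups modelled. WT day 14 against day 2 gave 173 calls with the block, 28 with only its groups, 1011 with no filter and 1397 by DESeq2, against 343. With the 20 genes left out, 57.1% of its 441 calls were higher, against 45.8% of the 343. At day 2 the 7 calls between KO and WT became 16 with no filter, 12 by DESeq2 and 3 with the block or with only those groups. Without 1 library, calls over all genes ran from 3 to 4 at day 2, 2051 to 4117 at day 7, 1041 to 1334 at day 14, 0 to 535 for WT day 7 and 22 to 712 for WT day 14 against day 2, and 431 to 1295 for the day 7 minus day 2 difference. Car1, at 0 to 90 counts, is limited by depth.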
